A study of Mus musculus with 20 samples.

Results

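The liver transcriptomes of 129Ola and B6 mice, the 2 strains that the series calls lean and diabetes resistant, were compared on 8 of its 20 arrays. The arrays were chosen by the strain in their labels, 4 of 129Ola (strain 129P2/OlaHsd) and 4 of B6 (strain C57BL/6). All 8 mice were males fed a diet of 45% fat. Liver RNA was taken at week 6, which the labels can be read to give as age or as time on the diet. The other 12 arrays, 4 each of C3H (C3HeB/FeJ), NZO (NZO/HiBomDife) and DBA (DBA/2J) males treated alike, served to measure what the array batches have in common. They also entered the statistical fit, so standard errors and p-values rest on the spread within all 5 strains. Their states helped to choose the on-off genes named, and their levels are given beside some genes. No mouse carried a transgene or a drug treatment per the labels, and a chow-fed group was not analysed here. Each array carries an animal number of its own and was taken as 1 mouse, and the p-values reflect only how these mice varied.

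Inbred strains are homozygous at nearly every locus, so a transcript that differs between strains can differ in regulation, in gene copy or in the sequence under a probe, and an array cannot tell these apart. In liver, a large share of the genes that answer to diet falls under a few regulators. SREBP proteins switch on the enzymes of sterol and fatty acid synthesis, and PPARA switches on the oxidation of fatty acids in mitochondria, peroxisomes and the endoplasmic reticulum. Constitutive androstane receptor (Nr1i3) controls many drug-metabolising enzymes, and interferons switch on a set of antiviral genes.

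The comparison has a limit that touches every value. The scanner files of C3H and 129Ola were made with a later version of the image extraction software than those of B6, NZO and DBA. The 129Ola arrays were scanned on a day that held no other strain, and so were those of C3H, so that strain and scan day cannot be told apart for 129Ola. In 129Ola, 40.0 to 43.4% of probes were well above background per array, in C3H 43.3 to 46.9%, in B6 51.9 to 59.1%, in NZO 49.2 to 54.0% and in DBA 50.2 to 53.4%. The 75th percentile of the log2 signal, which was subtracted from each array, was 5.82 to 6.24 in 129Ola and 6.92 to 7.14 in B6. The number of arrays and the signal over background limit the precision. For each gene a shift was therefore computed, the mean of C3H and 129Ola minus the mean of B6, NZO and DBA. A difference is called beyond the shift here when 129Ola and B6 differed (adjusted p under 0.05), when the difference was the larger of the pair, and when difference minus shift passed the same threshold in the same direction. The shift holds the 2 strains themselves, so a gene in which 129Ola stands alone carries part of its own difference there. Of 16 markers of hepatocyte identity, 3 were higher in 129Ola and 3 were lower (33.5% and 19.6% of all genes tested). Of the 16, 0 were beyond the shift (21.5% of all genes tested), and all 16 were well above background in all 8 mice. Their mean level was 8.38 to 8.52 in B6 and 8.40 to 8.61 in 129Ola.

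Of 19666 genes tested, 10440 differed between the strains (53.1%; 33.5% higher in 129Ola and 19.6% lower), with limma and Benjamini-Hochberg adjustment. Beyond the shift stood 4222 genes (21.5%), 2658 higher in 129Ola (13.5%) and 1564 lower (7.95%). The mice of the 2 strains did not overlap in 47.9% of genes (31.4% higher in 129Ola and 16.6% lower). The balance of directions depended on the scaling of the arrays. With quantile normalization 4738 genes were higher and 4179 lower, with the 75th percentile over probes above background on all arrays 3484 were higher and 6378 lower, and with normexp background correction 6611 were higher and 3350 lower. The median difference over all genes was 0.11 as reported, 0.02 with quantile normalization, -0.16 with the percentile over probes above background and 0.11 with normexp. Because of this, the descriptions that follow rest mainly on the 1491 genes (7.58%; 865 higher, 4.4%, and 626 lower, 3.18%) that were beyond the shift with the same sign under all 4 of these processings, and on genes that were on in 1 strain and off in the other. With the slide as a random block, 1291 of the 1491 genes (86.6%) stayed beyond the shift, and 1389 did so against a shift taken from C3H, NZO and DBA alone. Of these 1491 genes, 61.8% are measured by a single probe of the array. Of the 439 with another probe above background, 65.1% had such a probe called in the same direction and 13.7% one called in the opposite direction.

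**Figure D1:**
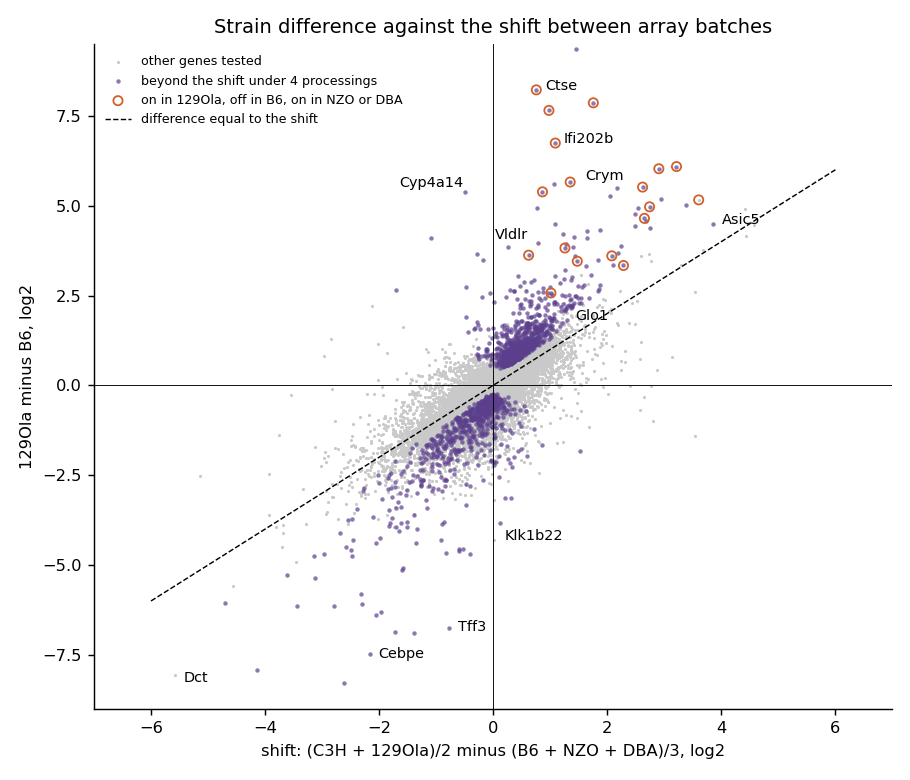
Each point is 1 of 19666 genes, with the shift between array batches on the horizontal axis and the difference of 129Ola minus B6 on the vertical axis, both in log2 units. Purple points are the 1491 genes beyond the shift under 4 processings, orange rings the 18 genes on in 129Ola and off in B6 that were on in NZO or DBA, and the dashed line marks a difference equal to the shift. Ctse and Ifi202b lie far above the line at a small shift, Tff3 and Cebpe far below it, and Asic5 close to it.

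The sharpest contrasts were genes seen in all 4 mice of 1 strain and in none of the other. The probes of 9 of them are shown because the on-off calls rest on signal on these sequences, with second probes named where a gene has one, and a variant of either strain under them was not looked for. The first 30 of the 60 bases of each probe are given 5′ to 3′ in the orientation of the array file. All letters are in lower case because no base is singled out. The span of the whole probe in mouse build mm9 follows the sequences, and the probes of Ifi202b, Pde6h and Klk1b4 span 1030, 2047 and 156 bases of the genome.
Ctse: gacctgtttttacagttggtttatttgtat
Nuggc: ctttcgtctaaagagatgaaaataggcctg
Ifi202b: attgacctcaaatgcagatgagtggtttct
Pde6h: catggaggggctaggaacagatatcacggt
Capn3: ttctgaaactgtctacttagcttgtactgg
Serpina12: gtacaatattttcccaggatagttaacaag
Enpp1: cagtgtgaagtgtttgactgtattccttcc
Klk1b22: atatactgaaggtgacagatgtcatgctgt
Klk1b4: cccatcaagttcaaatatccagatgatctc
Ctse lies at chr1:133571990-133572049 (+), Nuggc at chr14:66267169-66267228 (+), Ifi202b at chr1:175892953-175893982 (-) and Pde6h at chr6:136909707-136911753 (+). Capn3 lies at chr2:120330438-120330497 (+), Serpina12 at chr12:105267099-105267158 (-) and Enpp1 at chr10:24358048-24358107 (-). Klk1b22 at chr7:51371648-51371707 (+) and Klk1b4 at chr7:51466302-51466457 (+) are in the kallikrein cluster.

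In 129Ola, 28 genes were on and off in B6 (0.142% of genes tested). Of these, 18 (0.0915%) were also on in NZO or DBA, which share the software version of B6. All 18 were beyond the shift (13.5% of all genes were higher beyond it). NZO and DBA enter the shift and helped to choose the 18, so nothing is read from that count. Among the 18 are Ctse, Pde6h, Nuggc, Ifi202b, Fut1, Hist2h2bb, Olfr224, Rem1, Atp10d and Defa-rs4, and 7 are gene models without a symbol. Levels below are log2 signals relative to the 75th percentile of the array and compare 1 probe between mice. Folds of at least N are bounds against the lowest signal well above background. Adjusted p-values are from limma.

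Ctse, the aspartic protease cathepsin E, had levels of 2.15, 1.98, 2.73 and 1.72 in 129Ola 4, 5, 7 and 9 and of -6.29, -6.18, -5.85 and -5.99 in B6 9, 10, 11 and 15. Ctse was thus at least 76.7-fold higher in 129Ola (adjusted p = 4.2e-14). All 129Ola mice lay above all B6 mice, and the gene was on in DBA (mean 2.11) and NZO (mean -2.53) but off in all C3H mice.

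Ifi202b, an interferon-inducible gene of the HIN-200 family known to be silent in B6, had levels of 0.59, 0.34, 0.46 and 0.30 in 129Ola and of -6.41, -6.20, -6.60 and -6.07 in B6. The bound was 23.3-fold (adjusted p = 1.74e-15), and every mouse of the other 3 strains had signal. A second probe, off in B6 as well, gave a difference of 5.76. Nuggc, a nuclear GTPase of germinal centre B cells, had levels of 0.78, 1.05, 0.21 and 0.28 in 129Ola against -5.48, -4.86, -4.62 and -5.35 in B6. Nuggc was at least 25.9-fold higher (adjusted p = 1.73e-12). Its means of 2.34 in C3H, 2.87 in NZO and 2.53 in DBA were above that of 129Ola. For both genes B6 was the strain that lacked signal.

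Pde6h, the inhibitory subunit of the phosphodiesterase of cone photoreceptors, had levels of 1.56, 1.29, 1.42 and 1.44 in 129Ola against -6.19, -3.92, -4.61 and -3.93 in B6. The bound was 45.9-fold (adjusted p = 8.27e-10), and both of its probes differed by 6.09. Signal of Pde6h, which is known from the eye, was above background in every 129Ola, C3H, NZO and DBA liver. B6 was again the strain that lacked signal.

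Fut1, a fucosyltransferase that makes the H blood group antigen, was at least 12.1-fold higher in 129Ola, and Hist2h2bb, a histone H2B gene, at least 11.4-fold. Hist2h2bb was not beyond the shift under all 4 processings. Olfr224, an odorant receptor, was at least 9.95-fold higher, and Rem1, a small GTPase, at least 4.99-fold. Atp10d, a phospholipid flippase known to carry a stop codon in B6, was also at least 4.99-fold higher, and Defa-rs4, a defensin-related gene, at least 4.07-fold. B6 mice had no signal well above background for any of them. Of the 10 remaining genes on in 129Ola, 5 were off in all mice of C3H, NZO and DBA. Among these 5, Slc6a21, an orphan member of a transporter family, was at least 6.99-fold higher and Phyhip, a binding partner of a peroxisomal hydroxylase, at least 4.17-fold, and both are named after their values were seen.

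In the other direction, 1658 genes were on in B6 and off in 129Ola (8.43%), beside the lower share of probes above background in 129Ola. Their number therefore moves with detection, and the part of detection in it was not tested. In 335 of them (1.7%) the gene was on in all C3H mice, whose arrays share the software version of 129Ola, and 69 of the 335 had a bound of at least 2-fold, 37 with a gene symbol. Among those with a symbol, the 12 with the largest bounds are described.

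Dct, the dopachrome tautomerase of pigment cells, had levels of 2.97, 3.23, 3.27 and 3.27 in B6 9, 10, 11 and 15 and of -4.74, -4.78, -4.91 and -5.05 in 129Ola 4, 5, 7 and 9. Dct was at least 59.7-fold lower in 129Ola (adjusted p = 1.23e-14), and a second probe differed by -6.78. Its means were 4.26 in C3H, 6.56 in NZO and 6.09 in DBA, so 129Ola was the strain without signal. The gene was not beyond the shift under all 4 processings. Its shift of -5.58 contains the loss in 129Ola, and the part of this in the call was not tested.

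Serpina12, which encodes the adipokine vaspin, had levels of 0.15, 0.05, 0.24 and -1.16 in B6 against -4.16, -4.85, -4.98 and -5.18 in 129Ola. Serpina12 was at least 5.79-fold lower in 129Ola (adjusted p = 2.28e-08), on in C3H and NZO and off in all DBA mice. Enpp1, a pyrophosphatase linked to insulin signalling, had levels of -0.24, -0.26, -0.39 and -0.29 in B6 against -4.85, -4.89, -5.03 and -5.22 in 129Ola. Enpp1 was at least 5.35-fold lower (adjusted p = 2.06e-12), on in C3H and DBA and off in NZO. A second Enpp1 probe was also on in all B6 mice and off in all 129Ola mice, yet its level differed by only -0.04 (adjusted p = 0.94). The Enpp1 difference in level thus rests on the probe printed above.

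Capn3, a calcium-dependent protease known from muscle, had levels of -0.23, 0.23, 0.55 and 0.09 in B6 against -4.78, -4.83, -4.30 and -5.12 in 129Ola, at least 7.33-fold lower in 129Ola. Capn3 was not beyond the shift under all 4 processings. A second Capn3 probe, off in all mice of both strains, gave a difference of 0.76. Loxl4, a lysyl oxidase, was at least 7.25-fold lower and Gdf10, a TGF-beta family ligand, at least 5.76-fold. Cyp2c55, a cytochrome P450, was at least 5.53-fold lower but not beyond the shift under all 4 processings. Galnt15, a mucin-type glycosyltransferase, was at least 5.31-fold lower, Unc5a, a netrin receptor, at least 4.58-fold and Kcnk10, a potassium channel, at least 4.14-fold. All of these genes were on in every B6 and every C3H mouse.

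Tissue kallikreins, serine proteases encoded by a tandem family on chromosome 7, were lower in 129Ola in several members. This family was picked after its values were seen. Of 9 members tested, 6 were lower in 129Ola and 0 were higher (19.6% and 33.5% of all genes). Beyond the shift 4 were lower (7.95% of all genes). Klk1b22 had levels of -0.54, -0.40, -0.77 and -0.73 in B6 against -4.80, -4.85, -4.98 and -4.97 in 129Ola, at least 4.30-fold lower. Klk1b22 was not beyond the shift under all 4 processings. Klk1b4 had levels of 0.32, 0.23, 0.02 and -0.11 in B6 against -2.60, -2.64, -3.19 and -3.62 in 129Ola, at least 7.11-fold lower. Klk1b8 differed by -2.28 ± 0.19 (SE, n = 4 per strain) and Klk1b3 by -1.67 ± 0.16, whereas Klk1b5 differed by -0.35 ± 0.33 (adjusted p = 0.38). DBA was low as well, with means of -3.25 in Klk1b22, -4.13 in Klk1b4, -3.24 in Klk1b8 and -3.08 in Klk1b3. It lay below the 129Ola means of Klk1b4 (-3.01), Klk1b8 (-2.79) and Klk1b3 (-1.75). The means of C3H and NZO lay closer to B6 in all 4 genes. The members are near-identical copies, and their probes share runs of up to 28 bases, so signal of 1 member on the probe of another was not separated.

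Cebpe, a transcription factor of granulocytes, was on in all 4 B6 mice, at 2.82, 3.20, 2.77 and 2.64, and off in all 16 mice of the other strains. Its levels in 129Ola were -4.55, -4.59, -4.46 and -4.87, at least 47.5-fold lower than in B6 (adjusted p = 2.51e-12). Here B6 was the strain that stood apart. Of 9 neutrophil markers tested, 1 was higher and 3 were lower in 129Ola (33.5% and 19.6% of all genes), and Cebpe was the member beyond the shift. Of the 9, 5 did not pass the test. The mean level of that list was 0.87 to 1.94 in B6 and -0.27 to 0.43 in 129Ola. Cebpe itself is part of this mean, and the mean without it was not computed. The part of neutrophils in the Cebpe difference was not tested.

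**Figure D2:**
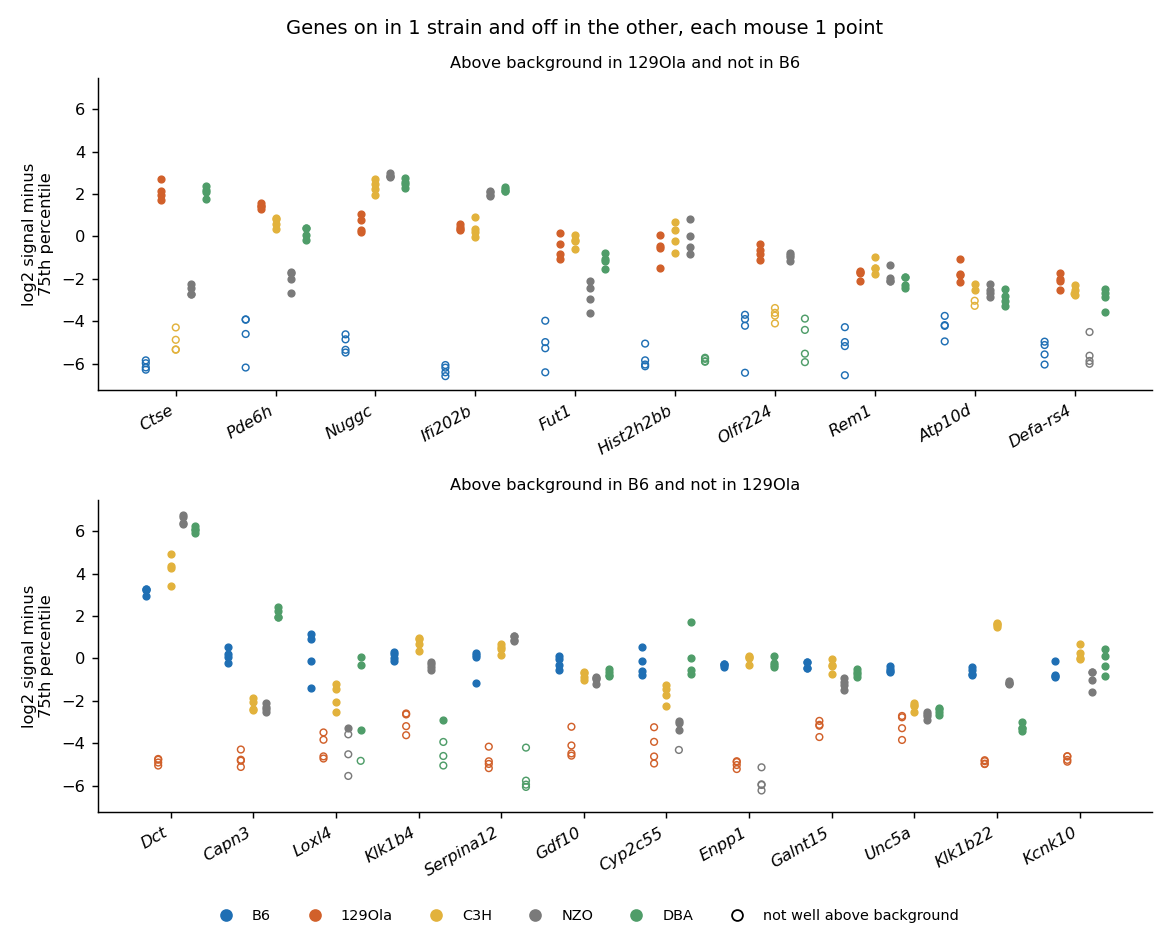
Each point is 1 mouse, with the log2 signal relative to the 75th percentile of its array on the vertical axis and the 5 strains side by side in each gene. The upper panel holds 10 genes on in 129Ola and off in B6, the lower panel the 12 on in B6 and C3H and off in 129Ola. Open points are arrays on which the probe was not well above background.

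Among genes measured on all 8 arrays, the largest differences fell into patterns that the other strains separate. In the first, B6 was low and all other strains were high. Crym, a thyroid hormone-binding protein (chr7:127329970-127330029), had levels of -2.24, -2.35, -2.72 and -2.70 in B6 and of 2.92, 2.75, 3.27 and 3.07 in 129Ola, a difference of 5.51 ± 0.19 (adjusted p = 4.12e-13). Its means of 2.81 in C3H, 2.06 in NZO and 2.66 in DBA were all on the side of 129Ola. Prelid2, of a family of mitochondrial lipid carriers, differed by 5.26 ± 0.16 with means of 2.04 to 2.47 in the other strains.

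Gpat3, an acyltransferase that starts triglyceride synthesis, had levels of -0.71, -0.14, -0.74 and -0.58 in B6 against 3.58, 3.50, 3.37 and 3.91 in 129Ola, a difference of 4.13 ± 0.18 (adjusted p = 1.01e-11). Hddc3, a hydrolase of the stringent-response nucleotide, differed by 3.93 ± 0.12 and Pik3c2g, a class II phosphoinositide kinase of liver, by 3.60 ± 0.15. A second Pik3c2g probe gave 0.87. In each of these genes the means of C3H, NZO and DBA lay closer to 129Ola than to B6, and all 4 B6 mice lay below all 4 of 129Ola. In the opposite direction Pttg1, the securin that holds back chromosome separation, was high in B6 alone, at 4.91, 4.67, 5.00 and 4.87 against 1.35, 0.80, 1.13 and 1.01 in 129Ola. It fell by 3.79 ± 0.14 in 129Ola (adjusted p = 1.42e-12), with means of 1.12 in C3H, 1.76 in NZO and 1.20 in DBA and a difference of -3.71 on a second probe. Of the 1491 genes, 434 (29.1%) had all 4 B6 mice outside the 16 others. The share of all genes was 3.69% (2.14% with 129Ola higher than B6 and 1.55% lower), and since the 1491 were chosen on the same values, nothing is read from the higher share among them. By this definition the NZO and DBA arrays, scanned on other days than 129Ola, sit on the side of 129Ola. Nothing is read from their place.

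In a second pattern, 129Ola stood alone. Tmem25, an immunoglobulin-domain membrane protein, had levels of -0.55, -0.53, 0.26 and -0.29 in 129Ola against 4.12, 4.40, 3.86 and 4.09 in B6, a difference of -4.40 ± 0.20 (adjusted p = 2.14e-11). Its means were 4.38 in C3H, 3.93 in NZO and 4.28 in DBA, all close to B6. Sugct, a CoA-transferase of glutarate breakdown, fell by 3.83 ± 0.15 in 129Ola, and Mbl2, a mannose-binding lectin of the lectin complement pathway, by 2.83 ± 0.17. Mbl2 levels were 5.33, 5.27, 6.37 and 5.58 in 129Ola and 8.38, 8.52, 8.48 and 8.46 in B6. All 4 129Ola mice were outside the 16 others in 657 of the 1491 genes (44.1%), again chosen on the same values, and in 15.8% of all genes tested (12.8% higher in 129Ola and 2.95% lower). Since 129Ola alone was scanned on its day, strain and scan day cannot be told apart in these genes, as in every other difference from B6.

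Other large differences split the strains differently. Tff3, a trefoil factor of mucus and bile duct epithelium, had levels of 5.43, 5.03, 6.11 and 6.51 in B6 and of -1.52, -0.93, -1.85 and 0.42 in 129Ola, and fell by 6.74 ± 0.49 (adjusted p = 1.03e-08). C3H (mean 6.29) was like B6, and NZO (0.91) and DBA (3.60) lay between. The mean of 10 tested cholangiocyte markers, which include Tff3, was 0.67 to 0.92 in B6 and -0.43 to 0.14 in 129Ola. Tff3 weighs on this mean, and the mean without it was not computed. The median difference of the 10 markers was -0.41, and -0.00248 with normexp, and 6 did not pass the test. Among the 10, 3 were lower beyond the shift (7.95% of all genes), namely Tff3, Spp1 and Prom1. Prom1 was not called without 129Ola 4 or with slide as a block. Slc4a2 was higher by 0.70, and in bulk liver fewer cells of a type and less RNA per cell cannot be told apart. Vldlr, the receptor for very low density lipoprotein, had levels of -2.44, -2.52, -2.40 and -2.13 in B6 and of 1.92, 1.60, 1.24 and 1.61 in 129Ola. It was higher by 3.97 ± 0.22 (adjusted p = 2.79e-10), with 3.40 on a second probe, at means of 0.58 in NZO, -2.62 in C3H and -2.08 in DBA. Ren2, a renin gene known to be missing from B6, was higher by 3.86 ± 0.56, at 0.50, 2.40, 0.41 and 3.51 in 129Ola against -2.33, -1.80, -2.32 and -2.18 in B6. The neighbouring Ren1 differed by 0.28 ± 0.40 (adjusted p = 0.58).

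Of the other genes in the set of 24, Asic5, a bile acid-sensitive ion channel, was higher by 4.50 ± 0.17, but its shift was 3.85 because C3H was as high (mean 5.60). Cox6b2, a testis form of a cytochrome oxidase subunit, was higher by 4.38 ± 0.49 and Rad51b, of homologous recombination, by 4.31 ± 0.29. Rad51b was low in DBA (-2.76) and B6 and higher in NZO (0.92). Lnx1, a ubiquitin ligase, was higher by 3.66 ± 0.43 but not beyond the shift under all 4 processings or with slide as a block. Cyb561, a transmembrane cytochrome, fell by 2.95 ± 0.26 and Hsd3b6, a steroid dehydrogenase, by 2.89 ± 0.18. Cyb561 was not beyond the shift with slide as a block. Xaf1, an interferon-inducible regulator of cell death, fell by 2.85 ± 0.19 on its brighter probe, but a second probe was higher by 6.16 in 129Ola (adjusted p = 5.67e-12), so that its direction is not settled.

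**Figure D3:**
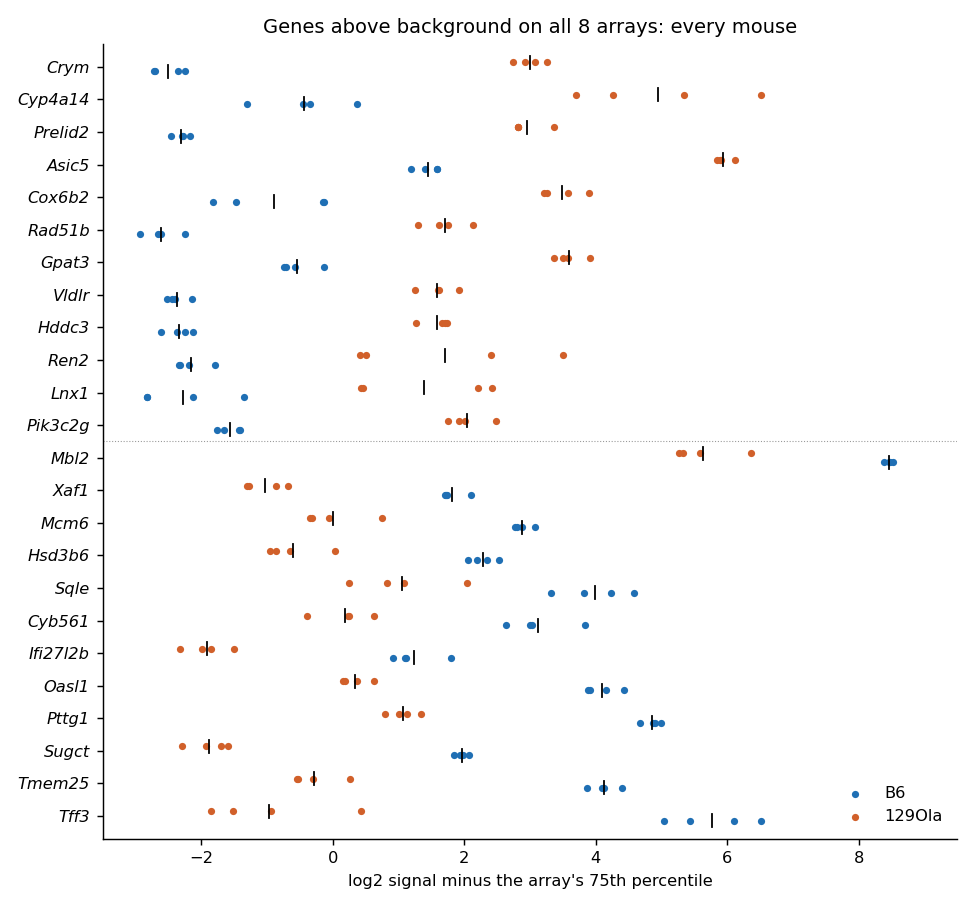
The 12 highest and 12 lowest genes by difference among those beyond the shift and above background on all 8 arrays, with 1 point per mouse on the log2 scale relative to the 75th percentile and black ticks for the mean of 4. The mice of the 2 strains did not overlap in any of the 24 genes, and Ren2, Lnx1 and Cyp4a14 vary most among 129Ola mice.

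Genes of fatty acid oxidation were higher in 129Ola. Of 35 tested members of that list, which holds targets of PPARA, 28 were higher than in B6 and 0 lower (33.5% and 19.6% of all genes). Higher beyond the shift were 18 (13.5% of all genes), and 12 held under all 4 processings (4.4% of all genes). The median difference was 0.72 where that over all genes was 0.11, and it was 0.42 to 0.45 under the other 3 processings. With slide as a block 17 members were beyond the shift, and 17 to 21 when any of the 8 mice was left out. The mean level of the list was 5.15 to 5.52 in 129Ola, 4.27 to 4.43 in B6 and 4.36 to 5.05 in the other strains, so that no 129Ola mouse overlapped any other mouse.

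The largest differences of the list lay in Cyp4a, the cytochrome P450 enzymes of fatty acid omega-hydroxylation and classical PPARA targets. Cyp4a14 had levels of 3.70, 4.26, 6.51 and 5.34 in 129Ola 4, 5, 7 and 9 against -0.45, 0.36, -1.31 and -0.35 in B6, a difference of 5.39 ± 0.78 (adjusted p = 2.14e-05). Its means were 2.53 in NZO and 2.74 in DBA but -2.71 in C3H, with 2 of 4 C3H arrays above background. Cyp4a10 had levels of 5.81, 5.76, 7.08 and 5.84 in 129Ola against 3.25, 3.84, 2.69 and 3.59 in B6 (2.78 ± 0.44, adjusted p = 5.95e-05), and its other probes gave 3.16 and 1.80. Among the mice of 129Ola and B6, 129Ola 7 was the highest in both genes and B6 11 the lowest.

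Cyp4a12a and Cyp4a12b, which are male-biased, were higher by 1.75 ± 0.16 and 1.91 ± 0.16. Here B6 was the low strain, with means of 4.92 and 5.58 against 6.67 and 7.48 in 129Ola. C3H (6.22 and 6.98), NZO (6.24 and 6.91) and DBA (6.46 and 7.23) lay closer to 129Ola. All 6 members of the Cyp4a family that were tested were higher and beyond the shift (13.5% of all genes), the lowest at 1.57 in Cyp4a32. Cyp4a32 had a higher mean in DBA (3.83) than in 129Ola (2.91). The probes of Cyp4a10 and Cyp4a31 share a run of 34 bases and may not be separate measurements. Acyl-CoA thioesterases, a family picked after its values were seen, were higher in 9 of 12 tested members (33.5% of all genes) and lower in 1, Acot9 (-0.38 ± 0.12), with Acot3 at 1.64 ± 0.41, Acot1 at 1.63 ± 0.40 and Acot11 at 2.41 ± 0.32. The members of mitochondrial and peroxisomal beta-oxidation that held under all 4 processings were Acaa1b (1.31), Acadm (1.08), Eci1 (1.06), Hadha (0.99) and Ehhadh (0.94).

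Enzymes of cholesterol synthesis were lower in 129Ola. Of 25 members tested, 13 were lower and 2 higher (19.6% and 33.5% of all genes). Beyond the shift 13 were lower (7.95% of all genes), and 12 held under all 4 processings (3.18%). The median difference was -0.81, and -1.08 to -0.90 under the other processings. With slide as a block 12 members were lower beyond the shift, and 12 to 16 when any mouse was left out. The mean level of the list was 2.53 to 3.10 in 129Ola, 3.42 to 3.89 in B6, and 3.55 to 4.94 in the other strains. C3H, which shares the software version of 129Ola, was the highest strain, at 4.33 to 4.94.

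Sqle, the squalene epoxidase, had levels of 3.32, 4.23, 3.82 and 4.58 in B6 and of 0.82, 0.25, 1.09 and 2.04 in 129Ola, and fell by 2.94 ± 0.35 (adjusted p = 2.53e-06). Hmgcs1, the synthase that makes the precursor of mevalonate, had levels of 5.80, 6.15, 5.47 and 5.87 in B6 against 3.82, 3.63, 3.84 and 4.0 in 129Ola, and fell by 2.00 ± 0.23. Cyp51, the lanosterol demethylase, fell by 2.80 ± 0.29 with 3 of 4 129Ola arrays above background. The mice of the 2 strains did not overlap in these 3 genes.

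Also among the 12 were Nsdhl (-1.90), Mvd (-1.82), Fdps (-1.27), Dhcr7 (-1.23), Lss (-1.22), Idi1 (-1.22), Msmo1 (-1.14) and Sc5d (-0.81), enzymes from the mevalonate steps to the last reductions of the sterol. Acat2 was higher by 0.78.

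Fatty acid synthesis genes moved less uniformly. Of 23 tested, 4 were higher and 6 lower (33.5% and 19.6% of all genes). Lower beyond the shift were 5 (7.95% of all genes), against 2 with slide as a block. Acacb, the acetyl-CoA carboxylase whose product inhibits mitochondrial fatty acid uptake, had levels of 4.12, 4.20, 3.43 and 3.33 in B6 against 1.30, 1.38, 2.15 and 1.93 in 129Ola, and fell by 2.08 ± 0.31 (adjusted p = 3.02e-05). Scd1, the stearoyl-CoA desaturase, had levels of 6.65, 6.36, 5.54 and 6.08 in B6 against 3.42, 3.32, 4.18 and 6.38 in 129Ola. Its difference was -1.84 ± 0.52 (adjusted p = 0.00728) and was no longer called with slide as a block, and the mouse 129Ola 9 lay among the B6 mice. Elovl6, a fatty acid elongase, differed by -1.03 ± 0.35 and was likewise not called with slide as a block, nor without B6 15, 129Ola 4 or 129Ola 9. In the list of lipid droplet and triglyceride genes, 12 of 27 were higher and 3 lower (33.5% and 19.6% of all genes). Beyond the shift 3 were higher (13.5% of all genes), and 0 of these held under all 4 processings (4.4% of all genes). That count was 2 without B6 10, up to 5 without other single mice, and 1 with slide as a block. Gpam, a mitochondrial acyltransferase of triglyceride synthesis, was lower (-0.87 ± 0.23) under all 4 processings but not beyond the shift with slide as a block.

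**Figure D4:**
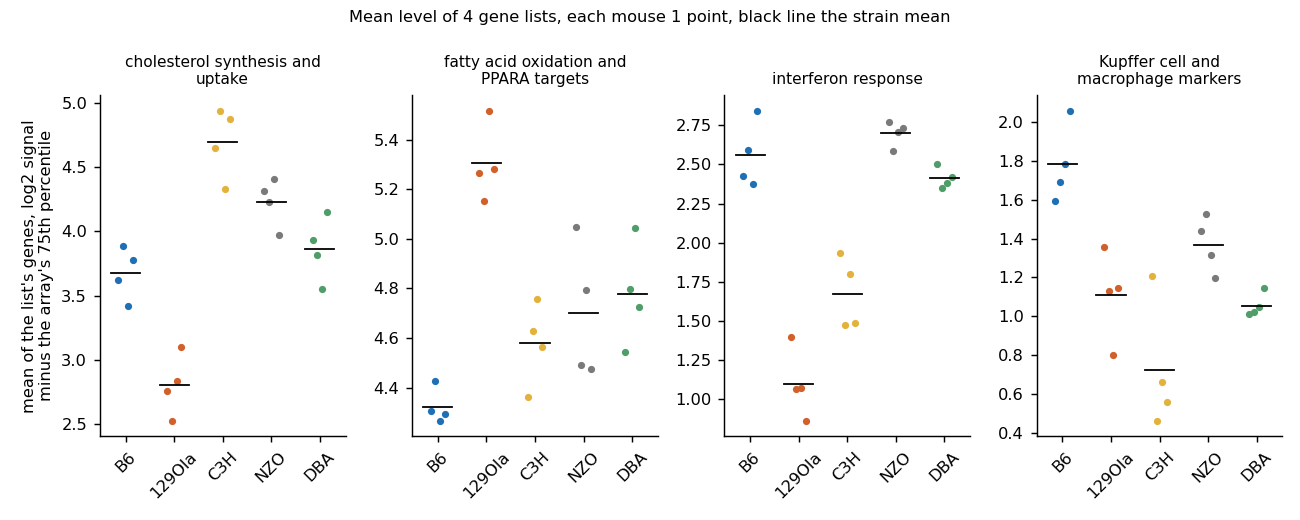
Mean level of 4 gene lists in each of the 20 mice, with the black line at the strain mean, on the log2 scale relative to the 75th percentile of the array. 129Ola is the lowest strain for cholesterol genes at 2.53 to 3.10 and the highest for fatty acid oxidation at 5.15 to 5.52, and it lies next to C3H for interferon genes, while B6 is the highest strain for macrophage markers.

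Interferon-response genes were lower in 129Ola, and a large part of that difference was shared with C3H. Of 52 tested, 45 were lower than in B6 and 2 higher (19.6% and 33.5% of all genes), with a median difference of -1.47, but the median shift was -1.24 and 11 were lower beyond the shift (7.95% of all genes), 10 of them under all 4 processings. With slide as a block 3 members were lower beyond the shift. The mean level of the list was 0.86 to 1.40 in 129Ola and 1.47 to 1.93 in C3H, against 2.38 to 2.84 in B6, 2.59 to 2.77 in NZO and 2.35 to 2.50 in DBA. The strains thus split by the software version and scan days, which cannot be told apart from strain here.

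Within this list Oasl1, an oligoadenylate synthetase-like protein, had levels of 3.89, 4.15, 3.91 and 4.43 in B6 against 0.64, 0.19, 0.37 and 0.16 in 129Ola. It fell by 3.76 ± 0.17 (adjusted p = 2.25e-11), with C3H at 2.78. Ifi27l2b, an interferon-inducible mitochondrial protein, fell by 3.14 ± 0.22 at a shift of 0.21, with -2.43 on a second probe, and was off in all NZO mice. Usp18, which removes the ubiquitin-like ISG15, fell by 2.48 ± 0.19 at a shift of -2.02 and was not beyond the shift with slide as a block.

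Genes of the Ifi200 family, DNA sensors encoded next to each other on chromosome 1, moved in both directions. Of 8 tested, Ifi202b was higher (above) and 4 were lower (19.6% of all genes), 3 of them beyond the shift (7.95%). Ifi211 had levels of -0.04, 0.22, 0.11 and 0.75 in B6 against -3.11, -3.37, -3.47 and -2.84 in 129Ola and fell by 3.45 ± 0.30, with 1 of 4 129Ola arrays above background. Ifi204 had levels of 2.92, 3.26, 3.08 and 3.21 in B6 against 1.12, 1.08, 1.17 and 1.17 in 129Ola and fell by 1.98 ± 0.14, with -2.91 on a second probe. Ifi207 fell by 1.39 ± 0.19 but was not beyond the shift with slide as a block. Ifi209 was on in B6 and off in 129Ola (-2.10 ± 0.37) but not beyond the shift. Ifi203 (-0.02 ± 0.28, with other probes at 1.15, 1.18 and -1.69) and Mndal (-0.99 ± 0.41, adjusted p = 0.053) did not pass the test, although Mndal did without 129Ola 7. Ifi208 differed by 0.16 ± 0.23 on its brightest probe while its other 3 probes gave -4.55, -2.43 and -1.96.

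Of the MHC genes, 16 of 28 were lower and 5 higher (19.6% and 33.5% of all genes). Beyond the shift 8 were lower and 5 higher (7.95% and 13.5% of all genes). With slide as a block 5 were lower and 2 higher beyond it, and the higher count was also 2 without B6 9, B6 10, B6 11 or 129Ola 4. Beyond the shift and under all 4 processings, the class I genes H2-Q8 (-1.55), H2-Q10 (-0.96), H2-Q2 (-0.69), H2-M2 (-0.52) and H2-K1 (-0.41) were lower, as was Nlrc5 (-2.15 ± 0.32), the transactivator of class I genes. A second Nlrc5 probe differed by 0.04. The class II gene H2-Ab1 was higher by 1.16, and H2-Aa (1.01), Cd74 (0.90) and H2-Eb1 (0.74) were higher beyond the shift but not under all 4 processings. H2-Ob, a class II chaperone subunit, differed by -1.62 and turned its sign with normexp (0.22). MHC haplotypes differ between inbred strains in sequence, and which probes match which haplotype was not looked for. Tlr12, a receptor for parasite profilin, fell by 2.64 ± 0.25, from 2.48 to 3.28 in B6 to -0.45 to 0.71 in 129Ola.

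Markers of non-parenchymal cells differed by cell type. Of 24 Kupffer cell and macrophage markers, 0 were higher and 11 lower in 129Ola (33.5% and 19.6% of all genes), 4 lower beyond the shift (7.95% of all genes). Their mean level was 0.80 to 1.36 in 129Ola, 1.01 to 1.14 in DBA, 1.20 to 1.53 in NZO and 0.46 to 1.21 in C3H, and B6, at 1.59 to 2.06, lay above all other mice. Marco, a scavenger receptor of Kupffer cells, had levels of 3.58, 3.68, 4.06 and 5.07 in B6 against 1.45, 2.50, 1.01 and 1.60 in 129Ola and fell by 2.46 ± 0.39 (adjusted p = 5.98e-05). Trem2, a lipid receptor of macrophages, fell by 2.05 ± 0.36 with 2 of 4 129Ola arrays above background, and Cd52 by 1.25 ± 0.21. The part of macrophages in the interferon and MHC differences was not tested. Of 20 sinusoidal endothelial markers 5 were higher and 5 lower (33.5% and 19.6% of all genes), with Stab2, a scavenger receptor, higher by 1.23 ± 0.13 and Vwf by 0.85 ± 0.10. In the other direction, Lyve1 (-1.46 ± 0.42), Clec4g (-0.43 ± 0.14) and Dnase1l3 (-0.51 ± 0.15) were lower beyond the shift under all 4 processings, but 0 members were lower beyond it with slide as a block. Of 25 stellate cell and fibrosis genes, 5 were higher and 10 lower (33.5% and 19.6% of all genes). Beyond the shift 7 were lower and 2 higher (7.95% and 13.5% of all genes). Timp2 (0.63) and Colec11 (0.54) were the 2, against 1 without B6 15 or with slide as a block. Among the lower were Col1a1 (-1.12 ± 0.28) and Col3a1 (-0.99 ± 0.20), the chains of fibrillar collagens. Of 17 lymphocyte markers, 1 was higher and 9 were lower (33.5% and 19.6% of all genes). Beyond the shift 2 were lower (7.95% of all genes), and 0 under all 4 processings (3.18%).

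Skeletal muscle markers, which liver should lack, had a mean of -2.12 to -0.07 in B6 and -2.77 to -2.33 in 129Ola. Of 10 tested, 5 were on in B6 and off in 129Ola (8.43% of all genes). None of the 10 was beyond the shift, and their high level in 1 B6 mouse (B6 10) stands beside these on-off counts, where its part was not tested. Of 4 adipocyte markers tested, Cidec (1.08) and Car3 (0.29) were higher, Car3 with its sign turned by normexp (-0.14), and Fabp4 (-0.14) did not pass the test. Adrb3, the beta-3 adrenergic receptor, fell by 1.82 ± 0.22, with -1.95 on a second probe, while the mean of the list was 2.53 to 2.58 in B6 and 2.28 to 2.51 in 129Ola. Adiponectin and leptin did not pass the filter on dim probes. Of 5 acinar markers and 8 erythroid markers, 0 and 1 were beyond the shift (21.5% of all genes).

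Cell cycle genes were lower in 129Ola in 16 of 24 members (19.6% of all genes), with 7 lower beyond the shift (7.95% of all genes) and 5 with slide as a block. Mcm6, a subunit of the replicative helicase, had levels of 3.07, 2.78, 2.87 and 2.80 in B6 against -0.35, -0.05, -0.31 and 0.75 in 129Ola and fell by 2.87 ± 0.30 (adjusted p = 6.46e-07). Cdc20, an activator of the anaphase-promoting complex, fell by 2.36 ± 0.35 with 3 of 4 129Ola arrays above background. Mcm3, another helicase subunit, was higher by 0.99. The median of the list moved from -0.66 to -0.12 with normexp.

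Enzymes of drug metabolism were higher in 129Ola in several members. Cyp2b10, a P450 induced through constitutive androstane receptor, had levels of 0.31, 0.20, -0.43 and -0.01 in 129Ola against -4.41, -5.50, -6.45 and -3.34 in B6, a difference of 4.94 ± 0.64 (adjusted p = 7.67e-06) where 1 B6 array was above background. The receptor gene itself, Nr1i3, was higher by 1.93 ± 0.18 at a shift of 1.44 and was not beyond it under all 4 processings. Sult1e1, the estrogen sulfotransferase, had levels of 1.36, 2.18, 1.69 and 2.05 in 129Ola against -2.12, -4.09, -2.78 and -1.65 in B6, a difference of 4.48 ± 0.54 (adjusted p = 3.28e-06), and 3 B6 arrays were above background. The highest mean of the other 3 strains was -0.41, in DBA.

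Gstt2, a glutathione transferase, was higher by 3.03 ± 0.18, at 5.19, 4.97, 4.61 and 4.63 against 1.90, 1.84, 1.58 and 1.96 in B6, and Tpmt, thiopurine methyltransferase, by 1.78 ± 0.12. Of 44 conjugating enzymes tested, 21 were higher and 6 lower (33.5% and 19.6% of all genes), 16 were higher beyond the shift (13.5% of all genes) and 8 held under all 4 processings (4.4%). With slide as a block 11 were higher beyond the shift. Of 37 xenobiotic P450 genes, 21 were higher and 5 lower (33.5% and 19.6%), and 10 were higher beyond the shift (13.5%), among them Cyp2c38 (1.63 ± 0.14), while Cyp2c37 was lower (-1.04 ± 0.22). The medians of these lists, 0.32 and 0.37, fell to -0.02 and -0.03 with normexp, so the lists as a whole have no settled direction.

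Oxidative phosphorylation genes were higher in 129Ola in 33 of 50 members and lower in 2 (33.5% and 19.6% of all genes), with a median of 0.44. Of these members, 15 were higher beyond the shift (13.5% of all genes). Only 1, Ndufb8 of complex I (1.03 ± 0.09), held under all 4 processings, and the median was 0.05 to 0.17 under the other 3.

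**Figure D5:**
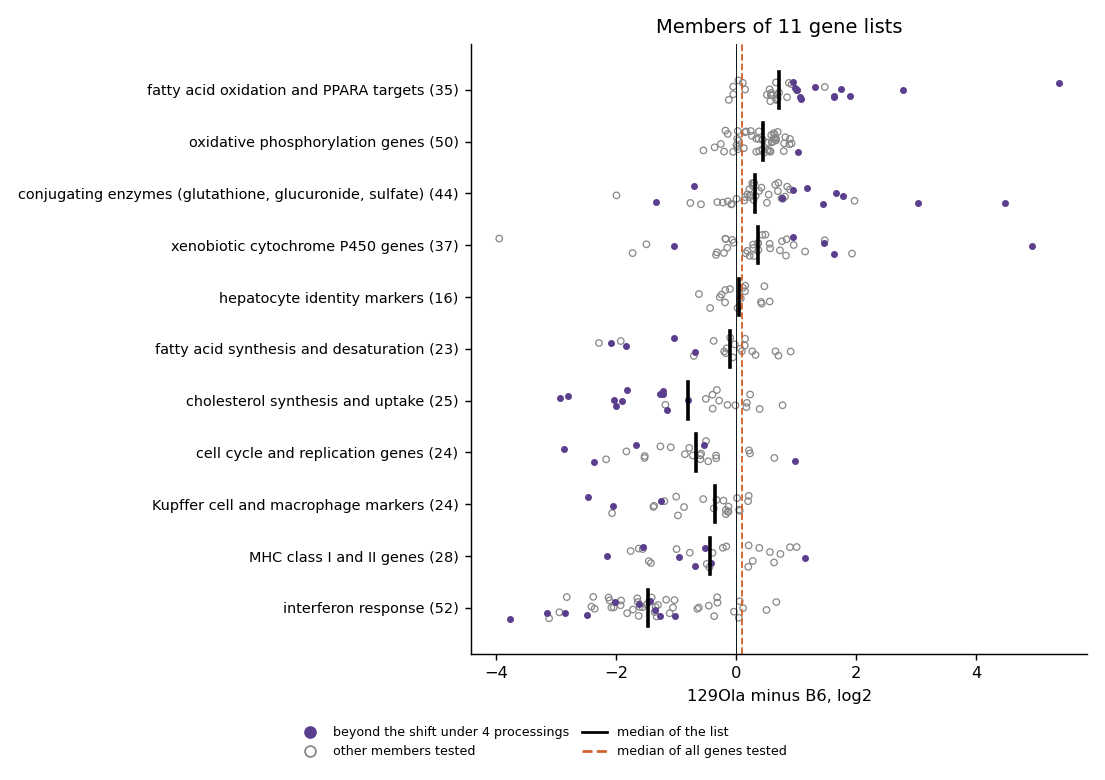
Difference of 129Ola minus B6 for every tested member of 11 gene lists, in log2 units, with the number tested in brackets and the black bar at the list's median. Filled points held beyond the shift under 4 processings. The dashed line is the median of all genes, 0.11, against -0.81 for cholesterol genes and 0.72 for fatty acid oxidation.

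Secreted and iron proteins also differed in single members. Apoa4, an apolipoprotein of gut and liver, had levels of 7.44, 7.27, 7.40 and 7.69 in 129Ola against 4.86, 4.41, 5.01 and 5.54 in B6, a difference of 2.49 ± 0.26 (adjusted p = 6.73e-07). Apcs, serum amyloid P, was higher by 1.89 ± 0.23 and Fga, the fibrinogen alpha chain, by 1.27 ± 0.13, although a second Fga probe differed by -0.27. Trib3, a pseudokinase of the stress response that binds AKT, was higher by 1.80 ± 0.29 and Slc40a1, the iron exporter ferroportin, by 1.53 ± 0.17. Mup3 and Mup20, major urinary proteins, were lower by 0.95 ± 0.10 and 0.87 ± 0.20, and Mup3 was not beyond the shift with slide as a block. Members of that family are near-identical, and which copy a probe reads is uncertain.

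Of 23 tested genes from a list of genes known to vary between inbred strains, 10 were higher and 5 lower (33.5% and 19.6% of all genes), and 8 were higher and 4 lower beyond the shift (13.5% and 7.95%; 6 and 2 with slide as a block), with Trem2 (above) among the lower. Nnt, the mitochondrial transhydrogenase that lacks exons in some C57BL/6 lines, had levels of 5.63, 5.62, 5.50 and 5.73 in 129Ola against 3.54, 3.63, 3.37 and 3.18 in B6, a difference of 2.19 ± 0.12 (adjusted p = 4.39e-10). Another Nnt probe was off in all B6 mice (4.31) and one more gave 1.21, so the size of the loss depended on the probe. Glo1, the glyoxalase whose locus is duplicated in some strains, had levels of 8.77, 8.69, 8.87 and 8.61 in 129Ola against 6.49, 6.53, 6.58 and 6.49 in B6, a difference of 2.21 ± 0.09 (adjusted p = 2.51e-12).

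Pam, an enzyme of peptide amidation, was higher by 1.34 ± 0.12 and Wdfy1, an endosomal protein, by 1.59 ± 0.11. Other Wdfy1 probes gave 1.67, -1.16 and -1.26. Adi1, of methionine salvage, was lower by 0.75 ± 0.12 on its brightest probe and higher by 0.40 on a second. Disc1, a scaffold protein of neurons, differed by -3.11 ± 0.26 but was not beyond its shift of -2.83. Xlr4a (2.26 ± 0.59) was higher with an overlap of the mice and was not beyond the shift with slide as a block. Alad (0.59), Cox7a2l (0.89) and Tmem181a (0.66) were higher beyond the shift but not under all 4 processings, and so were Insl6 (-1.45) and Klrd1 (-1.86) in the other direction. Ahr (0.83) and Gas5 (1.09) were higher but not beyond the shift. Apoa2 (0.08), Entpd4 (0.31), Erdr1 (-0.98), Ide (-0.42), Lyst (0.09), Slc39a2 (0.18), St3gal4 (-0.15) and Thumpd1 (0.15) did not pass the test. Entpd4 passed without B6 9 or B6 10, Erdr1 without B6 9, B6 10 or 129Ola 5, and Ide without B6 11 or B6 15. For Gas5 and Thumpd1 a dimmer probe was on in all B6 mice and off in all 129Ola mice, with differences of -6.85 and -7.10, so these genes have no settled direction.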

How the data were processed

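Liver RNA was labelled with Cy3 and hybridised to Agilent arrays. Per the file headers, the deposited intensity is the background-subtracted, spatially detrended signal of each spot, made with Feature Extraction 11.0.1.1 or 11.5.1.1 (9.1 per the submitters' processing notes). Deposited flags of 0 or 1 mark spots above background. The authors' value table of linear intensity, and mean and local background intensity per the file headers, served as alternatives. Control spots (3671 of 62976 per array) and outlier spots were left out, spots of 1 probe averaged, log2 taken and the 75th percentile of each array subtracted. Probes well above background on all 4 arrays of either strain entered, and the brightest stood for its gene. Probes were named through RefSeq accessions, of which 28011 of 29780 matched the GRCm38.p6 gene table.

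A mean per strain was fitted over 20 arrays with limma 3.58.1 (R 4.3.3), with Benjamini-Hochberg adjustment over all genes, and checked on simulated data. The 4 processings are the one above, quantile normalization, the percentile over 19947 probes above background on all arrays, and normexp (offset 50). The members and the 39 lists were chosen with earlier results of these data known. Named are the 12 highest and 12 lowest genes beyond the shift and measured on all 8 arrays, up to 12 on-off genes per direction with the largest bounds that were on in C3H (off in 129Ola) or in NZO or DBA (off in B6), up to 4 members of each list, and all tested genes of the strain-variation and Ifi200 lists. Unnamed gene models were counted, not named. Not all genes under the list rule are described. A few genes under these rules are not reported here. Family members and list members named beyond these rules, such as Acot9, Clec4g, Timp2, Colec11, Cidec and Fabp4, were chosen after their values were seen.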

Additional observations from a re-analysis of the deposited data

Results flagged for a closer look

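In 21 of 444 groups of 4 mice examined, 1 mouse stood apart from the other 3 by Dixon's criterion, where chance gives about 1 in 20. Of the 21, 9 concern B6 15. It was above the other B6 mice in Xaf1 (2.11), Elovl6 (3.31), H2-Q8 (6.72), Itgax (-1.0), Col3a1 (3.37), the mean of the lipid droplet list (2.80) and the mean of the MHC list (3.98), and below them in Serpina12 (-1.16) and Csnk1d (5.25). B6 9 was low in Dct (2.97) and high in Cyp4a12a (5.13), B6 11 was high in Kcnk10 (-0.14), and B6 10 was low in the mean of adipocyte markers (2.53). In 129Ola, mouse 9 was high in Prelid2 (3.37) and Irak3 (-3.58) and low in Lect2 (7.40) and Gas5 (0.84). Mouse 7 was high in Cyp4a10 (7.08), Pcx (8.34) and Ifi208 (3.01). Mouse 4 was high in the mean of the insulin signalling and IGF list (2.81). Without B6 15 the list counts beyond the shift were 12 lower for cholesterol genes and 18 higher for fatty acid oxidation, against 13 and 18 with it, and 9 lower for interferon genes against 11.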

How the results depend on the processing

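No paired analysis was possible because mice of the 2 strains are different animals. The number 9, which occurs in both groups, does not make a pair. Counts of genes higher and lower beyond the shift, 2658 and 1564 as reported, became 1496 higher after quantile normalization, 1122 and 2692 under the percentile over probes above background on all arrays, 1634 and 990 with normexp, 4027 higher with no filter on dim probes, 749 lower with probes above background on all 8 arrays, 1738 and 950 with slide as a random block, 1415 higher with the authors' value table, and 5858 and 3108 when the size of the shift was compared without a test. The counts of all differing genes moved to 3484 higher and 6378 lower with the percentile over probes above background, to 13373 higher with no filter and to 2199 lower with the 8-array filter. The cause was not tested, except that the filters change which genes enter. Leaving out each mouse in turn gave 6018 to 6400 higher and 3446 to 3791 lower, 2214 to 2658 and 1321 to 1611 beyond the shift, and 29 to 35 and 1720 to 2169 on-off genes. Of 3234 values of 183 named genes under the alternatives, 3065 kept direction and side of the threshold, 112 lost the call, 30 gained it and 27 reversed. With normexp the reversed values were Pnpla3 (0.17), Dgat1 (-0.0244), H2-Ob (0.22), Irak3 (0.31), Arg1 (-0.0120), Itgax (0.00565), Timp1 (0.29), Klrd1 (0.31), Cd3g (0.26), Cd2 (0.00491), Retnlg (0.40), Car3 (-0.14), Apoa2 (-0.27), Gas5 (-3.75) and Insl6 (0.14). With the mean over probes they were Xaf1 (1.66), Ifi208 (-2.20), Gas5 (-2.07) and Thumpd1 (-3.48), with no filter Pnpla3 (0.14), and with the authors' table Xaf1 (0.26), Gas5 (-1.91) and Thumpd1 (-0.97). Without any 1 of the 129Ola mice, Gas5 was at -6.90 to -6.73, and without each B6 mouse at 1.01 to 1.16. The counts of each gene list without each mouse and with slide as a block were chosen after seeing the data. Signal over background limits on-off calls in 129Ola.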
